A study of Mus musculus with 22 samples.

Results

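Regulators of G protein signaling (RGS) end the signals of heterotrimeric G proteins. A ligand-bound receptor loads the Gα subunit with GTP, and the RGS domain speeds the hydrolysis of that GTP, so that Gα and Gβγ reassemble and the signal stops. The mammalian proteins fall into subfamilies. The R4 proteins are small and are often induced by the signals that they limit, the RZ proteins act on Gαz and Gαi, and the R12 proteins act on Gαi and Gαo, with Rgs12 and Rgs14 also carrying a GoLoco motif that holds Gαi in its GDP form. In the gut, tuft cells sense luminal signals through taste-type G proteins, and enteroendocrine cells (EEC) release hormones under the control of many G protein-coupled receptors.

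The genes described are 9 of the 24421 genes in the count files: Rgs2, Rgs4, Rgs13 and Rgs16 of the R4 subfamily, Rgs17 and Rgs19 of RZ, and Rgs10, Rgs12 and Rgs14 of R12. The files list 21 genes named Rgs with a number. The 9 were chosen by their measured read counts in tuft cells and EEC, where members of the family stood among the large rises, so their levels in those cells against stem cells are given as a description, with no test. The comparisons between the other cell types were not used to choose them and were tested, except that the level of Rgs13 in SecPDG was already known and is described without a test. Those against stem cells share the stem cell libraries with the rises that chose the genes. They are therefore not independent of the choice, since a low count in stem cells favours a rise in both.

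The RNA came from epithelial cells sorted from the colons of wild type male C57BL/6N mice of 5 to 7 weeks without treatment, by the surface proteins Epcam, Cd44, Cd24 and Ckit after Cd31 and Cd45 positive cells had been gated out. The 22 libraries were 3 of stem cells (Stem), 3 of absorptive progenitors (AbsPro), 4 of SecPDG, which by the study's account are mainly progenitors of the secretory lineage and deep crypt secretory cells, with few goblet cells if any, 5 of tuft cells (Tuft), 5 of enterocytes (Ent) and 2 of EEC. By the study's methods the libraries of a cell type are biological replicates from separate mice and sorts, with mice pooled for the rarer types. A library is named by its cell type and number, and numbers are not paired between cell types.

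The depth, as reads assigned to genes, was 15314543 to 22462518 in a Stem, AbsPro or SecPDG library. It was 9930648 to 20892532 in a Tuft library, 5950619 to 12966128 in Ent and 4122122 to 13132315 in EEC. A normalized count is a count scaled by edgeR's TMM method to a library of average size. The 1448 olfactory and vomeronasal receptor genes with a known exon length were used to estimate background reads per kilobase, which came to 0.0407 to 0.644 normalized counts per kilobase in Stem, AbsPro and SecPDG, 0.627 to 3.69 in Tuft, 2.29 to 6.73 in Ent, 10.4 in EEC 1 and 1.95 in EEC 2. The summed Stem, SecPDG, Tuft and EEC markers each had their highest mean in the cell type of that label, and markers of other cell types were also read. The Tuft marker sum was 27494 to 73734 in Tuft and the EEC marker sum 632149 and 1819852 in EEC. The 5 SecPDG markers, among them the mucin Muc2, summed to 668815 to 1171728 in Tuft against 800500 to 2498872 in SecPDG. They also summed to 84640 to 262107 in AbsPro and 169121 to 494409 in Ent, against 20438 to 34597 in Stem and 36737 and 50175 in EEC. The enterocyte markers summed to 19243 and 56901 in EEC against 21680 to 24289 in Ent. Of the cells that the gates should remove, the 10 immune cell markers summed to 1576 to 3729 in Tuft and 2764 and 600 in EEC, against 208 to 232 in Stem, and the 9 markers of stromal and muscle cells to 4556 in EEC 1 and 571 in EEC 2, against 195 to 491 in Stem. The 5 endothelial markers summed to 187 to 686 in Tuft and 1683 and 873 in EEC, against 10.1 to 22.1 in Stem. Such cells can also express RGS genes, and their part in the levels below was not tested. The 22 libraries were fitted together with edgeR over 22781 genes. A gene was called where the quasi-likelihood test gave an adjusted p (Benjamini-Hochberg) below 0.01 and where its mean over the libraries reached 50 normalized counts. All 9 members were tested, and all but Rgs10, at a mean of 46.6, reached that mean. In bulk samples, fewer cells that express a gene and less RNA per cell cannot be told apart.

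The members with the highest level per kilobase in Tuft and in EEC were Rgs13 and Rgs4, which both lie on chromosome 1. Rgs2 and Rgs13 are neighbours on the minus strand, at chr1:143999338-144004161 and chr1:144138654-144177372 of mm10, Rgs16 is at chr1:153740349-153745468 on the plus strand, and Rgs4 is at chr1:169741477-169747642 on the minus strand. The 250 bases before and 50 after each RefSeq start (GRCm38.p6) were searched on both strands for the POU octamer ATGCAAAT, a class bound by Pou2f3 of tuft cells, the E-box CAGATG, a class bound by Neurod1 of EEC, the cAMP response element TGACGTCA and the TATA box TATAAA. These stretches are shown because they are the matches in the Rgs13 and Rgs4 promoters, each read 5′ to 3′ on the strand of the gene, with the match in capitals.
Rgs13, E-box, chr1:144177399-144177428: atctggacatgtCAGATGttctgataagtt
Rgs13, E-box, chr1:144177412-144177441: gctgcttccagcCATCTGgacatgtcagat
Rgs4, E-box, chr1:169747688-169747717: ctgcagacctgtCATCTGattggctgccgg
Rgs4, octamer, chr1:169747781-169747810: ccgctgggtccATTTGCATccctgatgcgt
Rgs4, TATA box, chr1:169747656-169747685: gcgtggctgagcTATAAAagagaccccacc
Counted from the start of transcription, the 2 matches of Rgs13 begin at -44 and -57, and their windows overlap. In Rgs4 the TATA box begins at -31, the E-box at -63 and the octamer at -157. CATCTG and ATTTGCAT are the same motifs on the other strand. Over all 32851 promoter entries, the octamer was found in 1.74%, the E-box in 17.2%, the cAMP response element in 1.79% and the TATA box in 13.6%. Promoters of 8 members, with 11 entries, were matched. Rgs19 was the other member with an E-box, and none of the 11 entries held the cAMP response element. A match describes letters, not a bound site.

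Rgs13 was the member that differed most between cell types. It had no count in any of the 3 Stem and 3 AbsPro libraries, and 2409, 1782, 2433, 5009 and 3690.4 normalized counts in Tuft 1 to 5. The means were 3065 ± 1289 (SD, n = 5) in Tuft, 418 ± 247 (n = 2) in EEC, 92.5 ± 43.4 (n = 4) in SecPDG and 13.2 ± 6.68 (n = 5) in Ent. The ranges of these 4 cell types did not overlap, in the order Tuft, EEC, SecPDG, Ent, and the Tuft mean was at least 4209-fold higher than Stem, with 3 counts over the Stem libraries as the floor. In Ent, the 5 values of 6.18 to 23.4 stand beside an estimated background of 8.23, which is 62.3% of the mean.

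**Figure D1:**
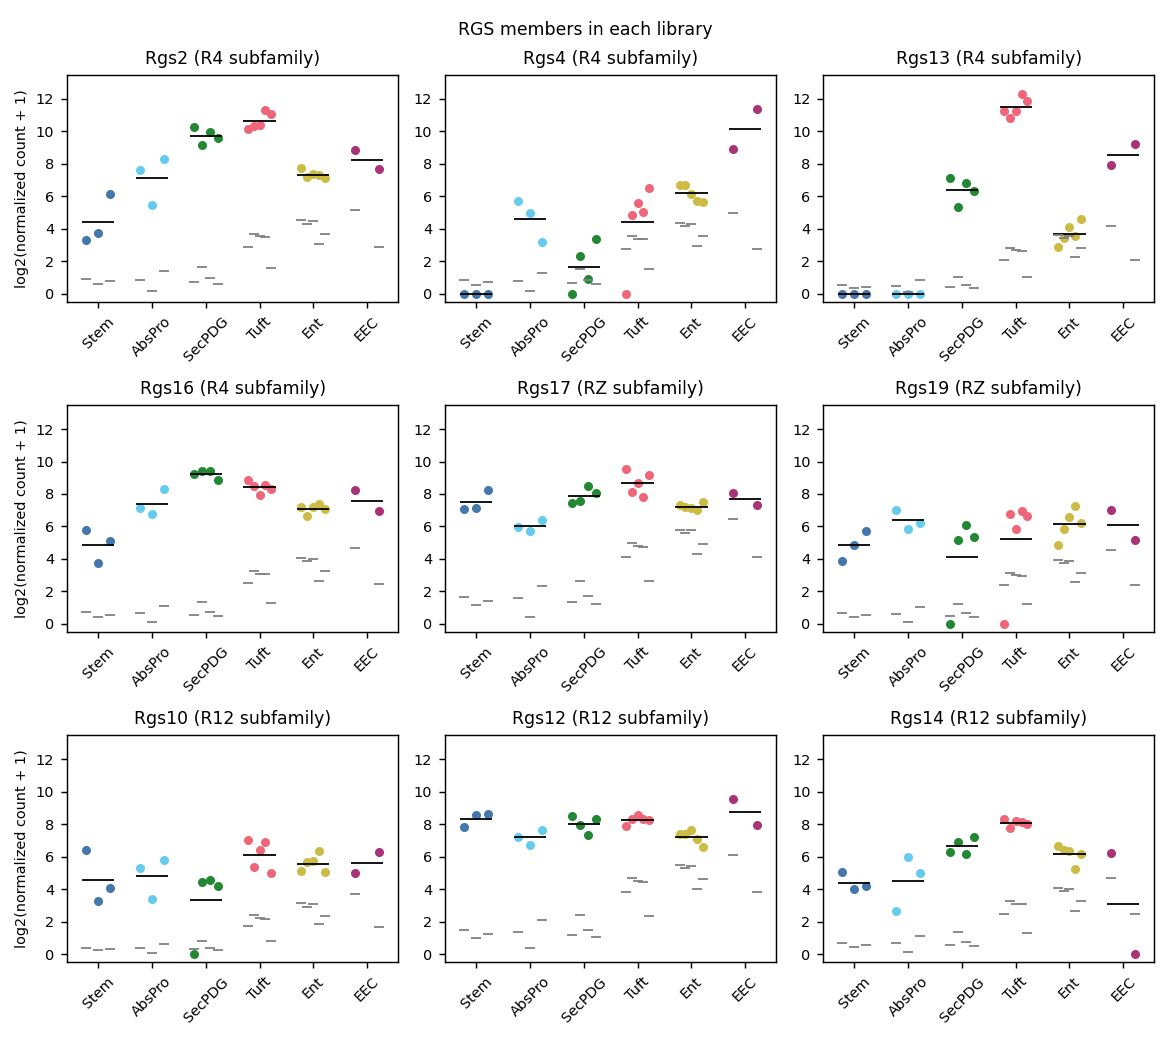
Each panel shows 1 member as log2(normalized count + 1), with a point per library, a line at the mean of the log2 values of the cell type and a grey dash at the estimated background of each library. Rgs13 stands highest in Tuft, Rgs4 in EEC, and both are at 0 in Stem.

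The Rgs13 level followed the tuft cell markers in EEC. The 7 markers found in the counts (among them Dclk1, Trpm5 and Pou2f3) summed to 4251 in EEC 1 and 9134 in EEC 2, a mean of 13.6% of the Tuft mean, and Rgs13 in EEC had a mean of 13.6% of its Tuft mean. Rgs13 was 5.71% and 6.49% of the marker sum in EEC 1 and EEC 2, and 4.75% to 8.06% in the 5 Tuft libraries, so the EEC values lay within the Tuft range. In SecPDG, the marker sum was 1.60% and Rgs13 3.02% of the Tuft mean, and the ratio ran from 5.71% to 22.7%. In Ent the ratio was 0.613% to 4.29%, below the Tuft range in every library. The part of tuft cells in the EEC and SecPDG values of Rgs13 was not tested. Mast cells also express Rgs13, and their 5 markers summed to 0 to 214 in Tuft, with 0 in Tuft 1, where Rgs13 was 2409. The part of mast cells in the Rgs13 values was not tested either.

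**Figure D2:**
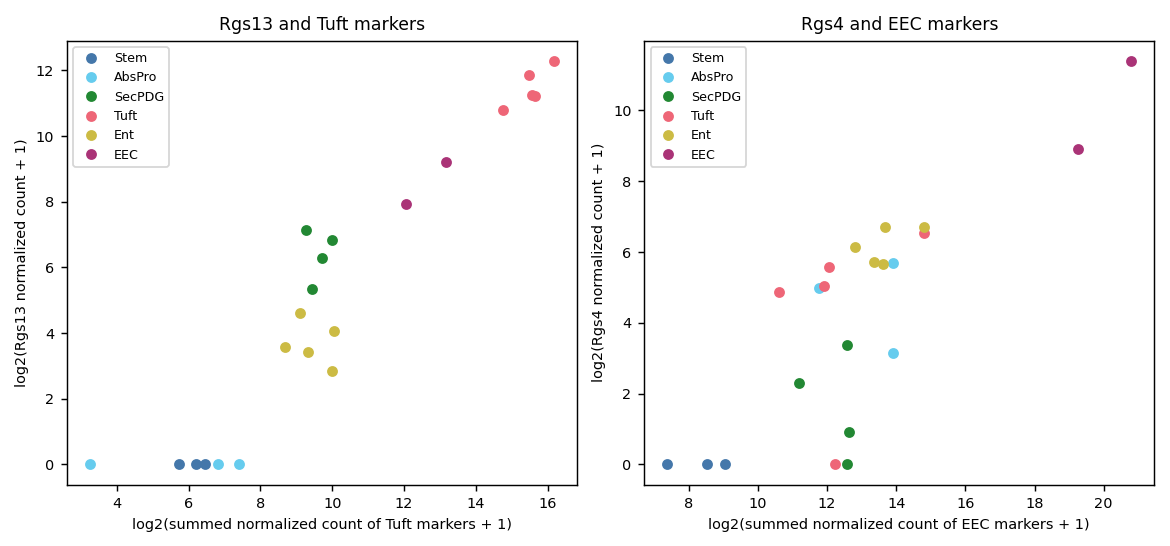
Left, log2(normalized count + 1) of Rgs13 against that of the summed Tuft markers, and right, Rgs4 against the summed EEC markers, with a point per library coloured by cell type. The 2 EEC libraries lie between Tuft and SecPDG on the left and stand apart at the upper right on the right.

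Rgs4, an R4 member best known from neurons, had the highest mean in EEC. It had no count in Stem, and it was at 481 in EEC 1 and 2703 in EEC 2, a mean of 1592 ± 1571 (n = 2). The next cell type was Ent, with 104, 104, 69.6, 51.8 and 49.7, of which the estimated background is 19.3%. Tuft (from 0 up to 91.9), AbsPro (7.93 to 50.8) and SecPDG (at most 9.31) followed, with ranges that overlap. EEC was at least 2186-fold higher than Stem, and the lower EEC library exceeded the highest other library. Rgs4 was 0.0762% and 0.149% of the EEC marker sum in EEC, and 0.365% to 0.971% in Ent, so the Ent libraries held more Rgs4 per EEC marker than the EEC libraries did. Markers of enteric neurons and glia summed to 688 in EEC 1 and 105 in EEC 2, and the higher Rgs4 value was in EEC 2. Their part, and that of EEC in Ent, was not tested.

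Rgs2, an R4 member that acts chiefly on Gαq, and Rgs16 were low in Stem and high in the secretory cells. Rgs2 was at 8.89, 12.2 and 69.8 in Stem and at 194, 42.1 and 310.2 in AbsPro. SecPDG had 1237, 558, 988 and 755, and Tuft 1152, 1284, 1325, 2546 and 2169. Ent had 140.5 to 215, and the EEC libraries 462 and 203. SecPDG and Tuft overlapped, both lay above EEC, and every cell type but AbsPro lay above Stem. Tuft was 56.0-fold and EEC 11.0-fold the Stem mean, and 161-fold and 31.6-fold without Stem 3, the Stem library with the most Rgs2. Rgs16 was the member with its highest mean in SecPDG, at 596, 671, 678 and 469.8, above the 248 to 462 of Tuft in every library. It was at 122 and 304 in EEC, 107 to 316 in AbsPro and 98.2 to 166 in Ent, which overlap, and at 12.2 to 53.4 in Stem, below all others. The SecPDG markers are also high in Tuft. Within Tuft, Rgs2 was highest in Tuft 4, where those markers were lowest, and within SecPDG it was lowest in SecPDG 2, where they were highest. Rgs16 differed, being highest within Tuft in Tuft 1, at 462, where those markers were highest, and at 671 in SecPDG 2. The part of the cells behind those markers in both genes was not tested. The exons of Rgs16 overlap those of the antisense gene Gm28513, and the counting did not use strand.

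Of the R12 members, Rgs14 was highest in Tuft, at 316, 212, 287, 281 and 263, a mean of 272 ± 38.5 that was 12.8 times the Stem mean of 21.2 ± 9.04. SecPDG (72.1 to 146) came next and did not overlap with Tuft. The 2 EEC libraries were at 72.6 and 0. Rgs12 was present in every library, with means of 495 ± 357 in EEC, 333 ± 91.1 in Stem, 309 ± 49.6 in Tuft, 271 ± 90.0 in SecPDG, 153 ± 40.1 in Ent and 149.7 ± 48.0 in AbsPro, and all neighbours in that order overlapped, though AbsPro and Ent both lay below Stem in every library. Its exons overlap those of the antisense gene Gm43791. Rgs10 was low throughout, from 15.2 ± 10.3 in SecPDG to 79.9 ± 43.9 in Tuft, again with all neighbours overlapping.

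The RZ members were also spread over all cell types. Rgs17 was at 730.0, 277, 405, 228 and 565 in Tuft, 172 to 367 in SecPDG, 271 and 158 in EEC, 135 to 305 in Stem, 127 to 177 in Ent and 52.4 to 82.3 in AbsPro, where it was lowest and apart from all others. The estimated background was 27.2% of its mean in Ent and 23.7% in EEC. Rgs19 ran from 31.6 ± 19.7 in Stem to 86.9 ± 38.0 in AbsPro, with no neighbours apart and with 0 in SecPDG 1 and Tuft 1. Over the 9 members, 5 had their highest mean in Tuft, 2 in EEC, 1 in SecPDG and 1 in AbsPro, and 11 of the 45 pairs of neighbours in the orders did not overlap.

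Levels of different genes were compared per kilobase of exons. Summed over the 21 RGS genes, the mean was 306 normalized counts per kilobase in Stem, 355 in AbsPro, 586 in Ent, 835 in SecPDG, 1899 in EEC and 3289.6 in Tuft. In Stem the 4 R4 members made up 7.23% ± 3.10 (SD, n = 3) of that sum and the 3 R12 members 30.4% ± 8.93. The share of the 4 R4 members was 39.1% ± 11.2 (n = 3) in AbsPro, 69.8% ± 9.18 (n = 4) in SecPDG, 76.4% ± 4.02 (n = 5) in Tuft, 24.8% ± 3.29 (n = 5) in Ent and 49.97% ± 20.3 (n = 2) in EEC. It covers the members chosen by their counts in Tuft and EEC, not the whole R4 subfamily. Rgs3, which is not in it, held 15.2% of the sum in Stem, 16.4% in AbsPro and 8.36% in Ent. The genes behind the shares of the 4 members differed. In Tuft, Rgs13 alone held 55.2% ± 4.78 and Rgs2 15.8% ± 1.96. In SecPDG, Rgs2 held 32.1% ± 8.56 and Rgs16 31.0% ± 4.93. In EEC, Rgs4 held 10.02% in EEC 1 and 42.5% in EEC 2.

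**Figure D3:**
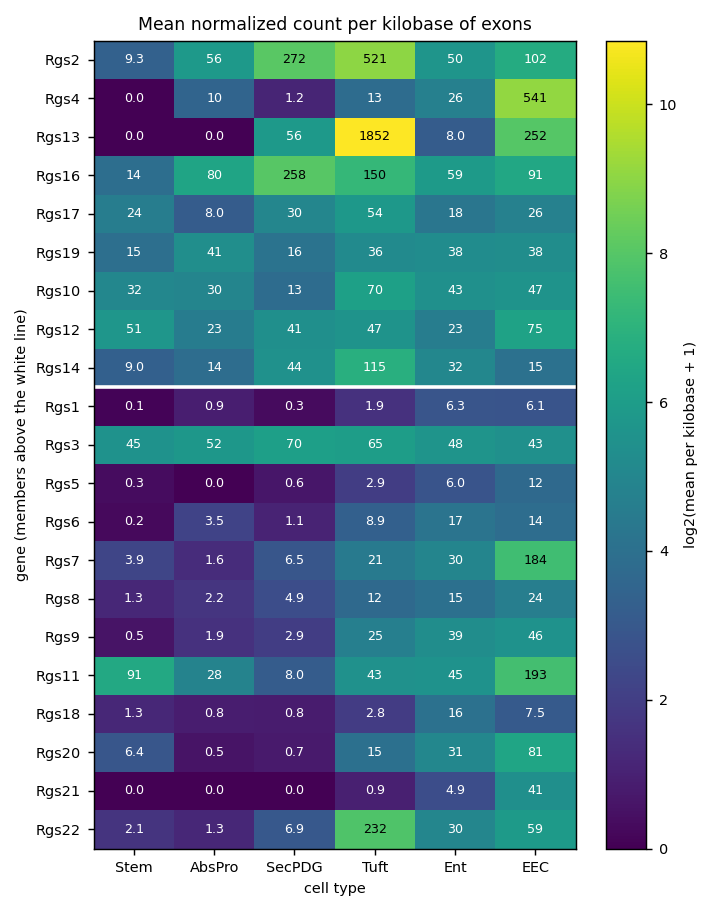
Mean normalized count per kilobase of exons of the 21 RGS genes in each cell type, printed in each cell and coloured as log2(mean + 1), with the 9 members above the white line. Rgs13 in Tuft is the highest value, and Rgs3 stays between 42.7 and 69.9 in all 6 cell types.

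Of the comparisons that were not used to choose the genes, SecPDG against Stem asks which genes change on entry into the secretory lineage. Its Stem libraries, however, are those of the rises that chose the genes. Rgs2 and Rgs16 rose, and none fell, where 3.39% of all tested genes were called higher and 1.59% lower. Rgs2 rose by a log2 fold change of 4.85 ± 0.53 (SE), with edgeR's adjusted p = 3.82e-10, and Rgs16 by 4.23 ± 0.47, adjusted p = 5.95e-10, each above the Stem mean in 4 of 4 libraries. Rgs2 stood at 6.42 on the log2 scale when Stem 3 was left out. Rgs13 was at least 127-fold higher, which was already known when the genes were chosen and is not counted here. Outside Tuft and EEC the mean of Rgs13 was 29.1, so it reached the minimum of 50 only through the cell types that chose it. Rgs14 was at a log2 fold change of 2.29 ± 0.67 and an adjusted p of 0.019, which misses the threshold. The median log2 fold change was 2.29 over the 9 members, or 2.28 with Rgs4 and Rgs13 at their bounds, and 0.00395 over all genes tested. The members' median takes in Rgs13, whose rise was already known, so it is given as a description. The calls of Rgs2 and Rgs16 held under each of the 34 alternatives.

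Against AbsPro, the progenitors of the other lineage, SecPDG had higher Rgs2, Rgs16 and Rgs17 and no lower member, where 2.00% of genes were called higher and 1.73% lower. The log2 fold changes were 2.31 ± 0.41 for Rgs2 (edgeR adjusted p = 5.61e-05), 1.72 ± 0.37 for Rgs16 (adjusted p = 0.00072) and 1.96 ± 0.48 for Rgs17 (adjusted p = 0.00496), and Rgs13, described without a test, was at least 108-fold higher. All 4 SecPDG libraries lay above all 3 AbsPro libraries for each of them. The call for Rgs17 was lost without any 1 AbsPro library, SecPDG 3 or SecPDG 4, with adjusted p of 0.0127 to 0.0458, and that for Rgs16 without AbsPro 2, at 0.0211. Leaving out AbsPro 3 moved Rgs2 to 2.91 on the log2 scale. Under the legacy form of the edgeR fit, neither Rgs16 (adjusted p = 0.0293) nor Rgs17 (0.0131) was called. The 2 robust legacy forms also lost the call for Rgs2, whose highest edgeR adjusted p over the alternatives was 0.0294. The median was 1.70 over the members, on the log2 scale, and 0 over all genes. It takes in Rgs13 too and is given as a description.

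In AbsPro against Stem, the first step of the absorptive lineage, Rgs16 rose by a log2 fold change of 2.51 ± 0.55 (edgeR adjusted p = 0.0060), above the Stem mean in 3 of 3 libraries, and no member fell. The SecPDG markers were higher in AbsPro too, at 190656, 84640 and 262107 beside 138, 107 and 316 of Rgs16 in AbsPro 1 to 3, and their part was not tested. The background was 0.496% of genes called higher and 0.0922% lower. Without Stem 1, Stem 2, Stem 3, AbsPro 3 or SecPDG 2 the adjusted p of Rgs16 was 0.0111 to 0.106. Rgs2, at 2.54 ± 0.64 and an adjusted p of 0.0227, missed the threshold, as did Rgs4, whose AbsPro mean was at least 41.0-fold the Stem floor (adjusted p = 0.173). The members' median was 0.59 on the log2 scale, and that of all genes 0.

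In Ent against Stem, which spans the absorptive lineage, Rgs2, Rgs4 and Rgs16 rose and Rgs12 fell, where 11.3% of genes were called higher and 11.5% lower. The log2 fold changes were 2.39 ± 0.62 for Rgs2 (edgeR adjusted p = 0.00137), 2.11 ± 0.55 for Rgs16 (adjusted p = 0.00144) and -1.12 ± 0.37 for Rgs12 (adjusted p = 0.00901), beside a median of -0.28 over the genes with a mean of at least 50. Rgs4 was at least 104-fold higher (adjusted p = 0.000304), and its call held with the estimated background taken off. Outside Tuft and EEC, however, the mean of Rgs4 was 32.2, so it reached the minimum of 50 only through the cell types that chose it. Rgs2 stood at 3.71 on the log2 scale when Stem 3 was left out. The SecPDG markers given above were also higher in Ent than in Stem, and their part in Rgs2 and Rgs16 was not tested. The call for Rgs12 was lost under 16 of 34 alternatives, among them DESeq2 (log2 fold change -0.45, adjusted p = 0.415), the replicate block (adjusted p = 0.0113) and the fit without Stem 2, Stem 3, SecPDG 4, Tuft 2 or any of Ent 2 to 5 (adjusted p of 0.0104 to 0.026). Without Stem 2, Rgs2 (adjusted p = 0.0229) and Rgs16 (0.0246) also missed the threshold, as did Rgs2 without Stem 1 (0.0124) and Rgs16 without Stem 3 (0.0110). The members' median was 1.82 on the log2 scale, and that of all genes tested 1.17.

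In Ent against AbsPro, edgeR called none of the 9 members at an adjusted p under 0.01, with 8.68% of genes called higher and 7.97% lower. Rgs2 was at a log2 fold change of -0.15 ± 0.47 and Rgs16 at -0.40 ± 0.42 between them. At an unadjusted p under 0.05 there were 2 members, Rgs13 and Rgs17, and DESeq2 called the same 2. Rgs17 stood at 1.20 ± 0.51 (edgeR adjusted p = 0.0441), with 5 of 5 Ent libraries above the AbsPro mean and 27.2% of its Ent mean as estimated background. The adjusted p of Rgs13 was 0.0766, beside the background of 62.3% given above.

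**Figure D4:**
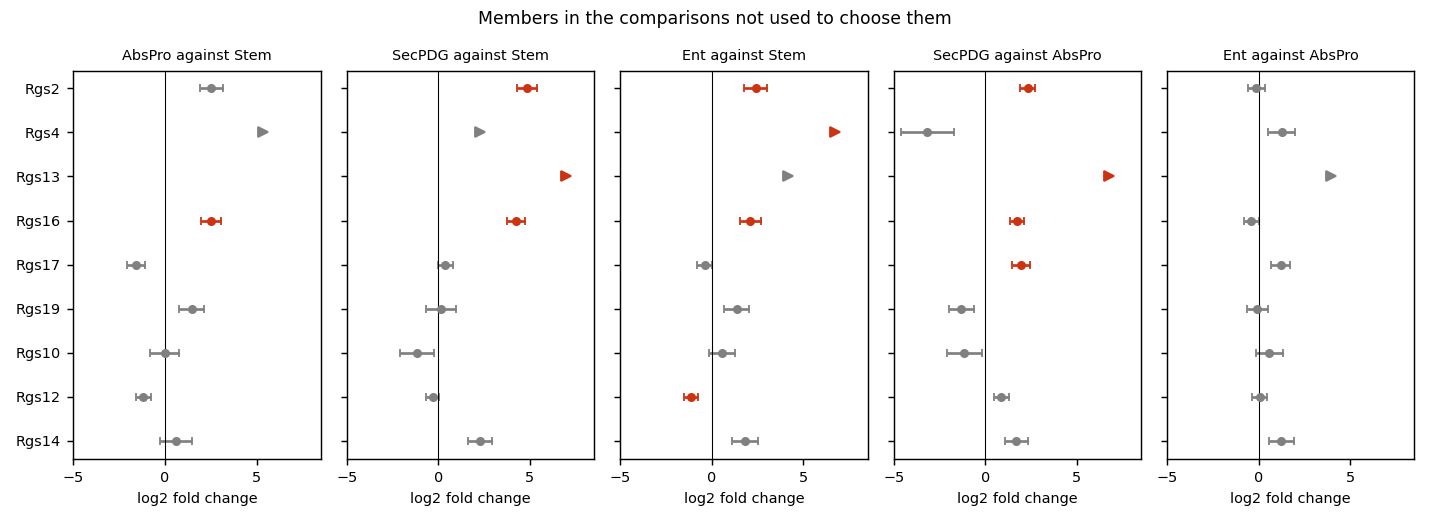
Log2 fold change with its SE of each member in the 5 comparisons not used to choose them, with genes past the threshold in red. Those against Stem share the Stem libraries with the choice. Rgs13 and Rgs4 passed the minimum mean only through Tuft and EEC. Triangles give the lower bound where the second cell type had no count, and Rgs13 has no point in AbsPro against Stem, where both were at 0.

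Of the other 12 RGS genes, all tested, 7 had a mean of at least 50, as did 13381 of all 22781 tested genes. That mean is over all libraries, Tuft and EEC included. For Tuft and EEC against Stem, a minimum mean taken outside them was not tried. In Tuft against Stem, 4 of the 12 rose and none fell, where 8.07% of all tested genes were called higher and 4.24% lower. Rgs22, a large RGS protein known mainly from testis, was at 411, 499, 717, 2263 and 758 in Tuft against 0 to 17.8 in Stem, a log2 fold change of 6.83 ± 0.66 (edgeR adjusted p = 1.20e-12). Rgs9, of the R7 subfamily that acts with Gβ5, was at 25.8 to 228 in Tuft and 61.5 and 497 in EEC, against 0 to 7.83 in Stem. In EEC against Stem, 5 of the 12 rose and none fell, where 11.3% of all tested genes were called higher and 9.13% lower. Rgs7, also R7, was at 367 and 556 against 0 to 17.1, a log2 fold change of 5.46 ± 0.72 (edgeR adjusted p = 1.03e-08), and its partner Gnb5, the Gβ5 subunit, rose by 2.78 ± 0.61 (adjusted p = 0.000218). The mean of Rgs7 was 75.8 over all libraries, with 9.76 in Stem, 3.93 in AbsPro, 16.4 in SecPDG, 52.6 in Tuft and 75.3 in Ent. Rgs6 and Rgs8 were called in both comparisons, and the estimated background was 28.3% of the Rgs6 mean in Tuft and 44.7% in EEC. In Ent against Stem the genes called higher were also Rgs6, Rgs7, Rgs8, Rgs9 and Rgs22, so these rises are not particular to Tuft and EEC. Rgs6 had its highest mean in Ent, at 124, and Rgs9 was at 114 to 368 in Ent, a range that overlaps with EEC. Rgs3 and Rgs11 were called in neither Tuft nor EEC. Rgs3 had means of 335 to 547 in the 6 cell types, and Rgs11 of 16.1 ± 13.2 in SecPDG to 388 ± 341 in EEC.

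The lists of G protein pathway genes, here and in the next paragraph, were chosen with earlier results of these data known. Their numbers of calls are therefore not independent of the data. Among the G protein genes that RGS proteins act on, 4 of 8 of the Gαi class rose in Tuft and 4 of 8 in EEC, and none fell. Over all tested genes, 8.07% were called higher in Tuft and 11.3% in EEC. In Ent against Stem, 2 of the 8 were called higher, where 11.3% of all tested genes were. Gnat3, gustducin of taste transduction, had no count in Stem, 548 to 1339 normalized counts in Tuft (at least 1333-fold higher, edgeR adjusted p = 1.30e-15), and 139 and 323 in EEC (at least 318-fold, adjusted p = 7.80e-08). The Tuft markers in EEC had a mean of 13.6% of their Tuft mean, and the part of tuft cells in the EEC values of Gnat3 was not tested. Gnai1 rose by a log2 fold change of 3.66 ± 0.37 in Tuft (adjusted p = 1.92e-11). In EEC, Gnaz, the Gα that RZ proteins act on, rose by 8.82 ± 0.78 (edgeR adjusted p = 3.20e-14) and Gnao1 by 6.70 ± 0.60 (adjusted p = 1.88e-13). Of the Gαq class, Gna14 rose in both, by 2.35 ± 0.39 and 1.98 ± 0.49, and the other 3 were not called. None of the 4 genes of the Gαs and Gα12/13 class was called in either comparison.

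Of the Gβ and Gγ genes, Gnb4 was called higher in both comparisons, with 30.1 to 399.8 in Tuft. In EEC, Gng4 was at 497 and 1630 against 0.712 to 11.5 in Stem, a log2 fold change of 7.58 ± 0.69 (edgeR adjusted p = 1.00e-13), and Gng11 had no count in either EEC library against 212 to 321 in Stem, at least 109-fold lower (adjusted p = 4.44e-05). Of the 18 effectors, 11 rose and 1 fell in Tuft, and 11 rose and 2 fell in EEC. Over all tested genes, 8.07% were called higher and 4.24% lower in Tuft, and 11.3% and 9.13% in EEC. Plcb2, the phospholipase of the taste pathway, rose in Tuft by 9.03 ± 0.57 (edgeR adjusted p = 7.87e-20), at 2330 to 7312 against 4.74 to 14.2. The adenylyl cyclase Adcy2 rose in EEC by 6.88 ± 0.65 (adjusted p = 7.61e-13). Adrbk2, a receptor kinase with an RGS domain, rose in both, by 4.97 ± 0.58 and 6.54 ± 0.59, and Axin2, a scaffold of Wnt signaling with an RGS domain, fell in both, by 1.45 ± 0.29 and 2.67 ± 0.42. Over all lists, 26 of 85 genes rose and 2 fell in Tuft, and 27 rose and 8 fell in EEC, with a median log2 fold change of 1.505 and 1.98 against 0.83 and 0.68 over all genes tested. In Ent against Stem, 25 rose and 9 fell, with 9 of the 18 effectors higher and a median of 1.82 against 1.17. There 11.3% of all tested genes were called higher and 11.5% lower. Of the 85 listed genes, 65 reached a mean of 50. Over all genes that did, the median was -0.07 in Tuft, -0.29 in EEC and -0.28 in Ent, each against Stem. With EEC and Stem fitted alone, 17 genes in place of 35 were called in EEC.

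The deposited tables of skipped exons gave a second readout for Rgs12. Its 154-base coding exon at chr5:35030468-35030621 (mm10, plus strand) was listed in the comparisons of AbsPro, SecPDG, Ent and Tuft with Stem. Of the annotated transcripts, Rgs12-203 skips it. Since 154 is 1 base over a multiple of 3, the 2 forms read the next exon in different frames. The junctions of both forms are shown because the 2 forms part there, while counts of inclusion also take in reads within the exon. Each has 15 bases of the upstream exon in lower case and the first 15 bases of the next exon in capitals, from the GENCODE vM21 transcripts.
Rgs12, exon included: aaccacttggctatgGGAGAGGAGAGAACA
Rgs12, exon skipped: aaccacttggctatgAGTTTTTTGAGCTCA
In Stem, 1 library had no reads of the event, and the other two had 17 and 25 reads of inclusion and 8 and 24 of skipping, which is an inclusion level of 45.4% and 28.96% per length. The 3 AbsPro libraries had 13, 9 and 41 reads of inclusion and none of skipping. SecPDG had 21 reads of inclusion and none of skipping in all 4 libraries, Ent 5 and none, and Tuft 47 and 4. Skipping was thus read mainly in 2 of 3 Stem libraries. Of these comparisons, AbsPro against Stem reached the minimum mean of 20 counts per library, and edgeR's test of inclusion by cell type gave an adjusted p of 0.803 (unadjusted p = 0.114). That test called 0 of 3690 events (0%), with 4 at an unadjusted p under 0.05, and limma called 0. So few low p-values show a test too conservative to speak for or against a difference, and the read counts are given as a description. Rgs10 had 1 event in the Tuft table, with 1 read in Stem and 41 in Tuft. No member was listed in the polyadenylation or local splicing tables.

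**Figure D5:**
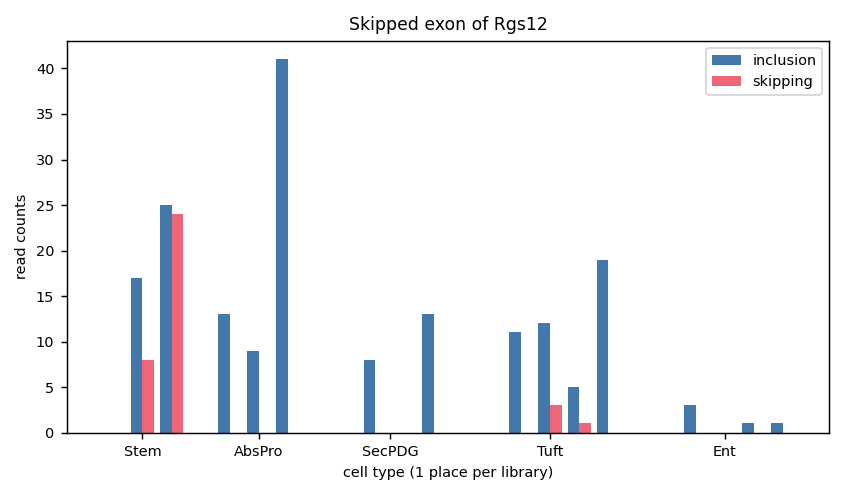
Reads of inclusion and of skipping of the Rgs12 exon per library, from the splicing tables of 5 cell types. Skipping reads are in 2 Stem and 2 Tuft libraries, and libraries without bars had no reads.

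The genes whose pattern was most like that of each member were found by Pearson's r of log2(normalized count + 1) over the 22 libraries, among 13373 genes. These r values describe differences between cell types, since libraries of a cell type share them. For Rgs13 they were Hmx3 (r = 0.979), Fyb (0.969) and Sh2d7 (0.956), for Rgs4 Resp18 (0.958), Slc38a11 (0.944) and Gsdma (0.935), for Rgs2 Samd5 (0.937), Rnf39 (0.925) and Piwil4 (0.925), and for Rgs16 Slc41a2 (0.954), Mical1 (0.946) and Plcb1 (0.920). The r of the first gene was 0.929 for Rgs19 (Acad12), 0.893 for Rgs14 (Trib2), 0.858 for Rgs12 (Pif1) and 0.834 for Rgs17 (Agt). Among the members themselves, r was highest between Rgs2 and Rgs16, at 0.863, and between Rgs2 and Rgs13, at 0.831, and lowest between Rgs17 and Rgs19, at -0.25.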

How the data were processed

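Colon epithelial cells of 6 sorted types were profiled by bulk RNA-seq in 22 libraries. By the study's methods, the authors aligned paired reads to mm10 with STAR 2.5.2a and counted them with HTSeq 0.6.1p1 without strand, and the deposited files are raw counts per gene. The 5 entries that name no gene, 53.95% to 91.64% of each file's counts, stayed out of totals and tests. For skipped exons, the deposited rMATS tables give, per library, counts that include or skip the exon. The deposited p-values and differences of the splicing and polyadenylation tables were not used.

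Gene counts were analysed with edgeR 4.0.16 under R 4.3.3 (filterByExpr, TMM, quasi-likelihood F test, cell type as the only term), and exons with edgeR on paired counts, in a fit with a term per library. The threshold was that of the study. Several forms of the edgeR fit were run and their numbers of calls were seen before 1 was chosen. The form used (legacy = FALSE) called 5178 genes in Ent against Stem and 134 in AbsPro against Stem, where the legacy form called 3118 and 83, and it was chosen because an earlier description of these data had processed them that way. DESeq2 1.42.0, limma 3.58.1, other scalings, filters and thresholds, a replicate block and leaving out each library served as alternatives. The forms of the fit, the background correction and a minimum mean taken outside Tuft and EEC were added after the values were seen. The scripts were tested on simulated data. Summaries were made with pandas 2.3.3 under Python 3.11.15 and figures with matplotlib 3.10.9.

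The 9 genes and all gene lists were chosen with earlier results of these data known. The genes named are the members, the other RGS genes with a mean of at least 50, up to 3 called genes per list with the largest change, and the 3 genes most like each member. Not all genes that this rule allows are named. Same-numbered libraries were not paired: of 44 pairs from different cell types, 16 had deviations from the group means that correlated above 0.1. Of the 154 pairs with different numbers, 49 did, and the median r was -0.0025 and 0.02. Reads carried no molecular identifiers, so the floor of 3 counts covers counting error alone. Exon lengths are from GENCODE vM21, on the same assembly as mm10. SecPDG and Tuft count files carry names of another form than the other 4 cell types. Protein sequences were not used here.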

Additional observations from a re-analysis of the deposited data

How the results depend on the processing

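Of 408 checks of the 12 member changes past the threshold under an alternative, 362 kept the call, 46 lost it and none changed direction. The 12 include Rgs13 in SecPDG against Stem and against AbsPro, described above without a test, and Rgs4 in Ent against Stem. Each of these kept the call in 33 of 34 checks, but reached the minimum mean only through Tuft and EEC. The total therefore also counts calls that depend on the cell types that chose the genes. With the minimum mean of 50 taken outside Tuft and EEC, Rgs13 and Rgs4 were no longer called, and 2 members were called in SecPDG against Stem in place of 3, 3 in Ent against Stem in place of 4 and 3 in SecPDG against AbsPro in place of 4. The number of members called in AbsPro against Stem, 1 in the text, was 0 with DESeq2's size factors, with library totals and with the 2 cell types alone, 2 at an adjusted p under 0.05, under the replicate block and in the legacy edgeR fit, and 3 with DESeq2 (Rgs2, Rgs4 and Rgs16). In Ent against AbsPro it was 0 in the text and 2 with DESeq2, Rgs13 included, with the limit given above. It was 1 with DESeq2's size factors, at an adjusted p under 0.05, with the 2 cell types alone and in the 3 legacy forms of the fit. In SecPDG against AbsPro, 4 members passed with Rgs13 included, 2 in the legacy fit and 1 in its 2 robust forms, and in EEC against Stem 17 pathway genes with the 2 cell types alone, in place of 35. Leaving out 1 library gave 0 to 2 members in AbsPro against Stem, 3 to 4 in SecPDG against Stem, 1 to 4 in Ent against Stem (1 without Stem 2, 2 without Stem 3), 2 to 4 in SecPDG against AbsPro (2 without AbsPro 2), 0 in Ent against AbsPro, 20 to 30 pathway genes in Tuft and 26 to 41 in EEC. The causes were not tested. The replicate block gave 3 members in Ent against Stem in place of 4, and, since same-numbered libraries did not deviate together (median r -0.0025 over 44 pairs), a call lost under it is not read as a weaker effect. The number of all genes called also moved. In AbsPro against Stem it was 134, against 439 with DESeq2, 228 with its size factors, 211 with library totals, 209 under the replicate block and 83 in the legacy form. In SecPDG against Stem it was 1136, against 1868 with DESeq2, 1873 with library totals and 709 in the legacy form, and in SecPDG against AbsPro 848, against 1479, 1382 and 506, and 1352 with DESeq2's size factors. The legacy form gave 3118 in place of 5178 in Ent against Stem, 1169 in place of 3794 in Ent against AbsPro and 1488 in place of 2803 in Tuft against Stem. Of the called genes, 49.6% were higher in Ent against Stem, 52.1% in Ent against AbsPro and 55.3% in EEC against Stem, and 75.5%, 83.5% and 77.4% with DESeq2's size factors. In SecPDG against Stem 68.0% were higher, and 44.3% with library totals, and in SecPDG against AbsPro 53.7% and 40.4%. DESeq2's size factors moved the median of all genes from -0.28 to 0.34 in Ent against Stem and from -0.29 to 0.47 in EEC against Stem, so that a fold change there is relative to that shift. No exon of a member passed a mean of 50 counts, and no member was in the polyadenylation tables, so those alternatives gave no value. The EEC values rest on 2 libraries, of which EEC 1 has the fewest counts and the most background. No group of 4 or 5 libraries, of 27 tested over the members, held a library far from the rest by Dixon's 95% value.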
